A study of Homo sapiens with 6 samples.

Results

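A nested gene lies wholly inside the span of another gene that is transcribed from the opposite DNA strand. The outer gene is called the host here. A pair was kept where the exons of the nested and the host gene shared at least 1 bp, neither gene shared exon with any other gene of the opposite strand, and the counts of both genes over all 6 libraries summed to at least 60. By this rule 739 nested pairs, or 1478 genes, were found among 2004 opposite-strand pairs of any arrangement. Of the rest, 649 were convergent pairs, which overlap at their ends, and 616 were divergent pairs, which overlap at their starts. The pairs were thus chosen by gene position and by their summed count, so the level of a pair is a description and not a finding. Just under the minimum were BMF-AS1/BMF, ENSG00000264273/PRPSAP2 and ENSG00000268275/TFEB, each at 59 counts. Just inside it were GPR17/LIMS2 at 60, ENSG00000268739/KLK10 at 61 and RAB11FIP1P1/ENSG00000271430 at 61.

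The RNA came from MB157, a human cell line of triple-negative breast cancer, a tumour type that lacks the oestrogen, progesterone and HER2 receptors. The titles name the cells MB157-Cas9, so both groups carried the Cas9 nuclease. Both groups were grown with puromycin, and the design text describes cells that stably express SOX9. Control cells received a control sgRNA, a guide RNA that serves as the reference. The other cells received an sgRNA that targets SOX9, which encodes a transcription factor of stem and progenitor cells in many epithelia. Both were collected after 4 days and sorted for the top 50% of sgRNA-expressing cells. The labels name 3 technical replicates for each group, so p-values cover only how far these libraries differ, which may be technical. Libraries were made from total RNA with a SMARTer Stranded Pico kit, a kit that keeps the strand, and the authors counted with strand setting 1 of featureCounts, per the file headers. Whether that setting assigns fragments of this kit to the strand they were transcribed from was not tested. This holds for every count given here, those of SOX9 and the cell markers included. If the setting does not, a count listed for a gene is of fragments from the strand across from that gene.

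Pairs of overlapping genes on opposite strands are common in mammalian genomes. Many of the inner or outer partners are antisense RNAs, noncoding transcripts that run against a protein-coding gene and can pair with its messenger RNA, interfere with its transcription or have no known role. Because both genes share base pairs, only the strand of a sequenced fragment tells which of them it is counted for.

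The 5 pairs of sequences below show what sharing an exon means, for pairs whose counts are described further on. Each is 48 bases of protein-coding sequence, from the transcripts of GENCODE 29 on GRCh38, first as the coding gene reads it and then as its antisense partner reads the same base pairs, both 5′ to 3′. Capitals mark the same 12 base pairs on both strands. A fragment from this stretch counts for one gene or the other by its strand alone.
GAPDH, plus strand, chr12:6537865-6537912: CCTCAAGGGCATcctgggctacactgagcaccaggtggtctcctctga
ENSG00000269968, minus strand: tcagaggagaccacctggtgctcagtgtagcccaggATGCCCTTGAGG
DDIT4, plus strand, chr10:72275026-72275073: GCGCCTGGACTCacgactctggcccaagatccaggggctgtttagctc
ENSG00000269926, minus strand: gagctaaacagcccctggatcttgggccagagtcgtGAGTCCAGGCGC
FAT2, minus strand, chr5:151512361-151512408: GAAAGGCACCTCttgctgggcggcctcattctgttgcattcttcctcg
ENSG00000271795, plus strand: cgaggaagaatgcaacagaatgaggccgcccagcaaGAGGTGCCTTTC
RIPK4, minus strand, chr21:41741203-41741250: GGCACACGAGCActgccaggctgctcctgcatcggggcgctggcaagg
ENSG00000236883, plus strand: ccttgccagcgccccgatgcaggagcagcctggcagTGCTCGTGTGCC
MUC5B, plus strand, chr11:1242425-1242472: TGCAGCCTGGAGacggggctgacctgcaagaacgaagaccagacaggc
MUC5B-AS1, minus strand: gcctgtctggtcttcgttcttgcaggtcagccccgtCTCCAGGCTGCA

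Total counts per library ran from 777960 to 881655 in the control group and from 776125 to 1018854 in the SOX9 sgRNA group, and nested pairs held 17.8% to 18.7% of them. Genes with at least 1 count numbered 18326 to 18818 in control libraries and 20207 to 21082 in SOX9 sgRNA libraries. The targeted gene, SOX9, had 38, 52 and 44 counts in control libraries and 37, 39 and 60 in SOX9 sgRNA libraries, a log2 fold change of -0.22 (SE 0.26, adjusted p = 0.70), so its listed counts did not separate the groups. Epithelial and basal markers were detected for 10 of 10 genes. They summed to 1002 to 1055 CPM (counts scaled to library size, here total counts) in control and 961 to 1140 in SOX9 sgRNA libraries. The sum rested mainly on KRT8 and KRT19, at 2797 and 1218 counts over all libraries. Single markers moved both ways. KRT14 had 14, 9 and 16 counts in control and 1, 0 and 6 in SOX9 sgRNA libraries. KRT5 had 62, 78 and 79 against 113, 102 and 127. ESR1 and PGR, the oestrogen and progesterone receptors, had 12 and 26 counts over all libraries, while ERBB2, the HER2 receptor, had 1021. Leukocyte markers were seen for 2 of 4 genes, at 9.07 to 13.1 CPM in control and 12.8 to 28.3 in SOX9 sgRNA libraries, with CD3E and LYZ at 0 and PTPRC at 1 count in all. Both endothelial markers found in the tables were at 0, and fibroblast markers had 2.38 to 5.14 and 3.87 to 8.44 CPM.

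Where one member of a nested pair was protein-coding and the other was not, most counts stood on the noncoding member. Of 582 such pairs, 454 (78.0%) had over 50% of their counts there, with a median noncoding share of 85.6%. The convergent pairs gave nearly the same picture, 198 of 251 (78.9%, median 86.9%), and the divergent pairs a lower one, 197 of 319 (61.8%, median 71.1%). Whether a count listed for the noncoding member came from a transcript of that gene or from the coding gene across from it was not tested.

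Seen by position, counts stood mostly on the inner gene. The host's share of a pair's counts had a median of 15.96%, with the middle 50% of pairs between 5.74% and 52.9%. It was under 50% in 544 pairs and over 50% in 193. In 281 pairs the host held less than 10% of the counts, in 88 more than 90%, and in 59 between 40% and 60%. Per kilobase of exon the nested gene was above its host in 626 pairs. Nested genes were short, with a median exon length of 638 bp against 5658 bp for hosts, and the median shared exon was 268 bp.

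The largest class, a noncoding gene inside a coding host, had 566 pairs and a median host share of 14.1%. The reverse, 16 coding genes inside a noncoding host, had a median host share of 53.0%, spread from 9.83% to 95.1% over the middle 50% of pairs. Among 67 coding genes inside coding genes the median was 61.0%, and the nested gene was the higher one per kilobase in 33. The 24 noncoding pairs had a median of 24.8%. In 66 pairs a member had no biotype in GENCODE 29, and their median was 16.2%. The plot of both members per kilobase shows the classes.

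**Figure D1:**
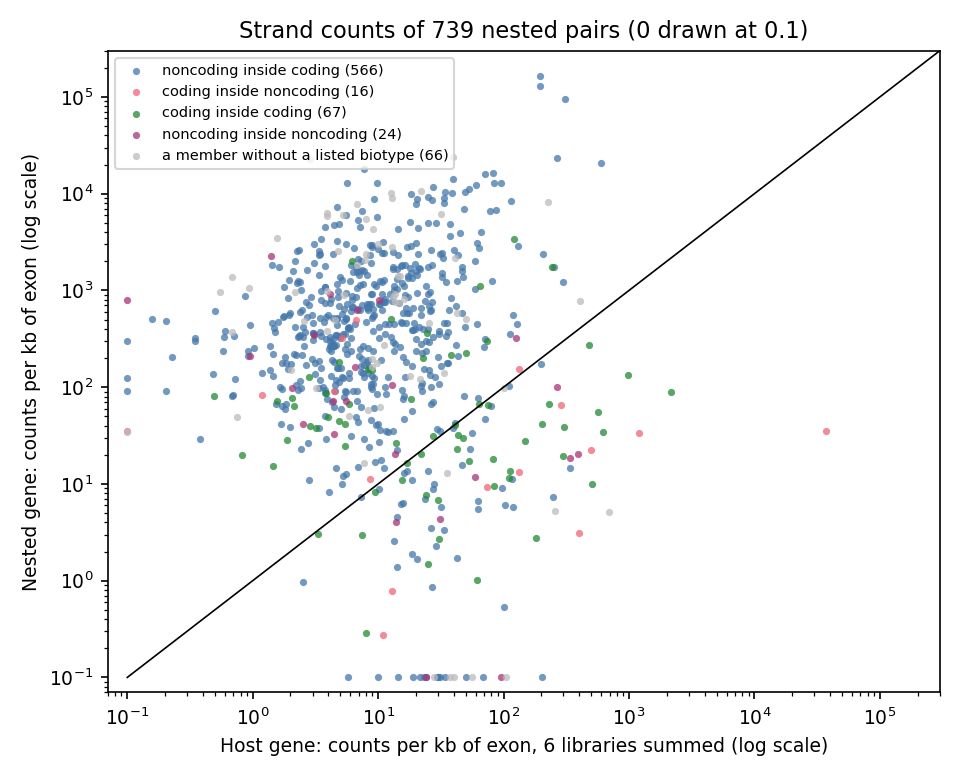
Counts per kilobase of exon summed over 6 libraries for the host (x, log scale) and the nested gene (y, log scale), 1 point per pair, coloured by class, with the line of equality and with 0 drawn at 0.1. In 626 of the 739 pairs the nested gene lies above the line, and most coding hosts of noncoding genes lie under 100 counts per kilobase while many of their nested genes lie above it.

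The share also varied with how much of the nested gene was host exon. In 215 pairs over 99% of the nested gene's exon lay in host exon, and the median host share was 10.5%. In 278 pairs under 25% did, and the median was 25.5%. Across all 739 pairs the Spearman correlation between the overlapped part and the host share was -0.21, a description only, since the pairs share their libraries. The classes differ in both values. The median overlapped part was 41.0% for noncoding genes inside coding hosts, with a median host share of 14.1%. For coding genes inside coding genes these were 10.8% and 61.0%. How much of the relation goes with class was not tested.

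In 7 of the 10 pairs with the most counts, a noncoding gene or one without a biotype held about 90% of the counts or more inside its coding host. ENSG00000265401 (chr17:16285466-16285983, GRCh37, minus strand) lies within UBB, a ubiquitin gene, and had 12364, 13743 and 11947 counts in control and 12475, 11880 and 14145 in SOX9 sgRNA libraries, while UBB had 57, 39 and 39, and 60, 43 and 77. UBB thus held 0.36% ± 0.092 of the pair's counts in control libraries (SD, n = 3) and 0.46% ± 0.092 in SOX9 sgRNA libraries, ranges that overlap. ENSG00000272540 (chr6:30690882-30691654, minus strand) lies within TUBB, a beta-tubulin, and summed to 74010 counts against 1046 for TUBB. ENSG00000269968 (chr12:6646960-6647536, minus strand) has all of its 422 bp of exon within exons of GAPDH, the glycolytic enzyme, and summed to 54805 against 585. Per kilobase of exon that is 129870 counts for the antisense gene and 197 for GAPDH.

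Within the same 10, BIRC5, which encodes the inhibitor of apoptosis survivin, had 152 counts against 24212 for the gene inside it, and ARHGDIA, which encodes a GDP dissociation inhibitor, had 277 against 9880. P4HB, a protein disulfide isomerase, and NUCKS1, a nuclear phosphoprotein, kept more of their pairs, with host shares of 10.2% ± 1.32 and 9.09% ± 0.16 in control libraries (SD, n = 3). TUBA1B, an alpha-tubulin, is the inner gene of its pair (chr12:49521565-49525180, minus strand), and its noncoding host TUBA1B-AS1 had 60580 counts against 126. Per kilobase these are 37120 and 35.3. In all 8 pairs the high strand was the one across from the coding gene.

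The other 2 of the 10 pair a coding gene with a coding gene. RPL32, a ribosomal protein gene inside CAND2, had 12620 counts against 658 for the host. PRELID1, which encodes a mitochondrial lipid transfer protein, lies inside MXD3 (chr5:176730775-176733960, plus strand), a gene of the MAX network of transcription factors, and had 167 counts against 11069. RPL32, TUBB, TUBA1B and GAPDH have near-identical copies elsewhere in the genome, so how the authors' counting split their fragments is uncertain.

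Further pairs of 2 coding genes, picked after their values were seen as the largest of their class, were uneven too. EMC6, ATP6V1F and JUNB, which encode a membrane protein insertase subunit, a proton pump subunit and an AP-1 transcription factor, had 102, 27 and 100 counts, and their hosts P2RX5-TAX1BP3, KCP and HOOK2 had 5749, 5154 and 3398. TMSB10, an actin-binding thymosin, had 855 counts and its host TRABD2A 2118, although these exons share only 9 bp. ZNF593OS was high over its host ZNF593, 2590 against 12. In 115 of all 739 pairs a member also shares exon with a gene of its own strand, and a fragment could then count for more than 1 gene. Among these are the pairs of EMC6, ATP6V1F and JUNB, and those of RPL32 and PRELID1 above. The pairs of TMSB10 and ZNF593OS are not.

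Some coding hosts did hold nearly all counts. Of the 566 pairs with a noncoding gene inside a coding one, 51 had over 90% on the host, against 227 with under 10%. The largest, named after their values were seen, were UBE2D3, a ubiquitin-conjugating enzyme (1115 against 90 for UBE2D3-AS1), GDI2, a Rab GDP dissociation inhibitor (811 against 0), and HSD17B1, an oestradiol-forming dehydrogenase (656 against 26). UBE2D3 and UBE2D3-AS1 were close per kilobase of exon, at 111 and 102 counts.

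Of the pairs with at least 600 counts, the 6 nearest to an even split were looked at by library. The antisense gene within MIA3, a collagen export receptor of the endoplasmic reticulum, had 211, 195 and 185 counts in control and 257, 245 and 376 in SOX9 sgRNA libraries. MIA3 had 164, 177 and 183, and 233, 216 and 231, so its share was 47.0% ± 3.04 and 44.2% ± 5.29 (SD, n = 3). SLC7A5, a transporter of large neutral amino acids, held 43.1% ± 1.38 and 45.3% ± 4.03 of its pair, and XPO5, the exporter of microRNA precursors, held 45.9% ± 2.97 and 58.3% ± 7.90. GRTP1 held 36.3% ± 5.71 and 45.6% ± 3.11, ENSG00000130723 44.1% ± 8.21 and 55.5% ± 8.37, and the noncoding host of POMZP3 57.3% ± 12.8 and 58.2% ± 11.5. The share fit, described further on, called none of the 6, and their adjusted p-values ran from 0.74 to 0.99.

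MicroRNA genes were the nested member in 10 pairs. The one with the most counts was MIR3187, inside PLPPR3, with 990 against 107 for its host, and its mature products are shown with the seed, the bases that pair with targets, in capitals, from RefSeq for GRCh38.p14. The labels' protocols name a total RNA kit, and these counts are of fragments over the gene's exon and not of mature microRNA.
hsa-miR-3187-5p: cCUGGGCAgcguguggcugaagg
hsa-miR-3187-3p: uUGGCCAUggggcugcgcgg
MIR3187 had 205, 194 and 133 counts in control and 145, 145 and 168 in SOX9 sgRNA libraries. It fell with a log2 fold change of -0.44 (adjusted p = 0.036), a call that was not followed through other settings. The other 9 nested microRNA genes summed to between 0 and 84 counts each. In MIR3195/TAF4, MIR1260B/MAML2 and MIR3665/SLAIN1 the host held 22.2%, 24.1% and 17.1% of the counts. In MIR4279/PDZD2, MIR3124/SH3BP5L, MIR1538/NFAT5, MIR3190/BBC3, MIR1470/WIZ and MIR3918/SYTL3 the host held 71.8% to 100% of the counts.

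SOX9 sgRNA and control libraries were first compared gene by gene. Of the 966 genes of nested pairs that passed the filter on low counts, 38 rose and 82 fell at an adjusted p under 0.05, which is 12.4%. Over all 7959 genes tested, 9.01% were called, 2.99% higher and 6.02% lower. Changes of at least 2-fold were called for 15 genes higher and 18 lower, against 1.39% and 1.72% of all genes. The median log2 fold change was 0.00 for genes of nested pairs and 0.01 for all genes. Groups did not overlap in CPM for 272 of the 966 genes (28.2%), against 24.5% of all genes tested. Scaled by library totals instead of TMM factors, 95 genes of nested pairs were higher and 47 lower, while the median of all genes moved from 0.01 to 0.19.

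Genes of nested pairs also stood at higher levels. They had a median average log2 CPM of 5.60 against 5.15 for all genes. Within the band under 6, 4.55% were called against 4.14% of all genes, within 6 to 8 it was 16.4% against 13.1%, and at 8 and over 40.5% against 37.7%. In that highest band the median log2 fold change was -0.18 for genes of nested pairs and -0.15 for all genes. By role, 26 nested genes rose and 62 fell of 581 tested (15.1%), and 12 hosts rose and 20 fell of 385 (8.31%). Convergent pairs had 10.9% of 941 genes called and divergent pairs 12.1% of 800, and the difference between arrangements was not tested.

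The 12 deepest falls included both strands of the MUC5B, THBS1 and DDIT4 pairs and the host of MGP. MUC5B-AS1 lies inside MUC5B, a gel-forming mucin of mucous epithelia (chr11:1263491-1270906, GRCh37, minus strand), and had 123, 123 and 121 counts in control and 5, 3 and 7 in SOX9 sgRNA libraries. No SOX9 sgRNA library came near a control library, and the log2 fold change was -4.82 (SE 0.30, adjusted p = 6.08e-22). MUC5B itself had 30, 30 and 29 counts in control and 11, 4 and 12 in SOX9 sgRNA libraries, a log2 fold change of -1.95 (SE 0.40, adjusted p = 0.00024).

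C12orf60, the coding host of MGP, fell from 139, 176 and 155 counts to 17, 16 and 14, with a log2 fold change of -3.54 (SE 0.23, adjusted p = 2.51e-21). MGP, the matrix Gla protein, an inhibitor of calcification, had 13, 8 and 8 counts in control and 2, 3 and 2 in SOX9 sgRNA libraries, without overlap, and was too low to be tested. The 2 genes share 76 bp of exon. Their summed count fell by 3.42 on the log2 scale (SE 0.22, adjusted p = 2.05e-24).

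THBS1, which encodes the matrix glycoprotein thrombospondin-1, had 60, 94 and 97 counts in control and 30, 33 and 29 in SOX9 sgRNA libraries. ENSG00000259279, inside it (chr15:39885781-39886432, minus strand), had 442, 455 and 415, and 125, 125 and 185. Both fell, by 1.67 (SE 0.25) and 1.83 (SE 0.11) on the log2 scale, with adjusted p of 3.77e-07 and 5.09e-22.

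DDIT4, a stress-induced inhibitor of mTORC1 signalling, had 42, 19 and 41 counts in control and 8, 15 and 7 in SOX9 sgRNA libraries. ENSG00000269926 within it (chr10:74034673-74035738, minus strand) had 571, 592 and 523, and 222, 198 and 242. The groups did not overlap on either strand, and the log2 fold changes were -1.98 (SE 0.39, adjusted p = 0.00017) and -1.58 (SE 0.10, adjusted p = 1.58e-21).

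The remaining 5 of the 12 deepest falls were called on 1 strand. ENSG00000230385, inside the lipid-sensing receptor gene GPR55, had 18, 26 and 29 counts in control and 3, 4 and 3 in SOX9 sgRNA libraries (log2 fold change -3.05, SE 0.52), and GPR55 itself had 2 counts in all. SCAND3, the host of ZBED9-AS1, had 28, 59 and 28 against 14, 11 and 15 (-1.74, SE 0.35). The noncoding host of KRT23, a keratin gene, had 81, 75 and 67 against 18, 35 and 49 (-1.37, SE 0.25), with 9 counts for KRT23. PLCE1-AS1, inside a phospholipase C gene, had 32, 58 and 53 against 18, 25 and 22 (-1.36, SE 0.31), while PLCE1 had 62, 75 and 67 against 78, 52 and 71 (-0.25, SE 0.21, adjusted p = 0.56). MELTF-AS1, inside the melanotransferrin gene, had 87, 103 and 82 against 40, 33 and 61 (-1.26, SE 0.22), and MELTF was at -0.37 (SE 0.27, adjusted p = 0.48). For PLCE1 and MELTF the difference between the strands was itself not called by the share fit (adjusted p = 0.60 and 0.65). All 12 falls kept their call without each library in turn, and the other 70 called falls lay between -1.22 and -0.21.

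The largest rise was antisense to a collagen gene. ENSG00000267650, inside COL5A3, which encodes a chain of type V collagen (chr19:10106673-10107839, plus strand), had 5, 3 and 6 counts in control and 84, 67 and 90 in SOX9 sgRNA libraries (log2 fold change 3.84, SE 0.36, adjusted p = 1.01e-13). COL5A3 had 2, 0 and 0 counts in control and 13, 13 and 10 in SOX9 sgRNA libraries, without overlap, and was too low to be tested. Both strands were thus higher in the SOX9 sgRNA libraries, and the pair's sum rose by 3.86 (SE 0.34, adjusted p = 1.67e-16). Whether some counts of COL5A3 came from fragments of the gene inside it was not tested.

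Antisense genes inside 2 further hosts with few counts rose as well. The one inside OVOL1, a zinc-finger transcription factor of epithelia, had 24, 17 and 29 counts against 60, 52 and 93 (1.29, SE 0.28), with 0, 2 and 0 against 3, 3 and 8 for OVOL1. The one inside KCNV1, a modifier subunit of potassium channels, had 28, 19 and 14 against 47, 66 and 87 (1.47, SE 0.29), with 0, 3 and 0 against 6, 3 and 14 for KCNV1. In the OVOL1 pair neither strand overlapped between groups in CPM, and for KCNV1 each group held a library with 3 counts.

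At 8 further rises the partner did not pass the test or was too low for it. The gene inside GAREM1, an adaptor of growth factor signalling, had 6, 3 and 7 counts against 26, 19 and 39 (2.11, SE 0.46), while GAREM1 had 9, 3 and 5 against 6, 6 and 3. The gene inside BAALC had 0, 5 and 1 against 22, 14 and 13 (2.76, SE 0.73). MAPK8IP1, a scaffold of the JNK pathway, rose as a host, from 11, 5 and 8 to 29, 24 and 30 (1.54, SE 0.42), and the antisense gene inside it had 16, 19 and 36 against 30, 27 and 27 (0.01, SE 0.34). MAPK15, an atypical MAP kinase, had 6, 7 and 10 against 32, 25 and 23 (1.56, SE 0.43), and the gene inside it had 1 count in all.

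The gene inside MOV10, an RNA helicase, had 33, 29 and 11 against 66, 64 and 60 (1.17, SE 0.29). LDHAP2, a processed pseudogene of lactate dehydrogenase A inside LYST, had 8, 1 and 12 against 25, 16 and 31 (1.5, SE 0.48), and a pseudogene inside HCP5 had 18, 13 and 4 against 28, 27 and 39 (1.19, SE 0.38). As copies of other genes, both are uncertain. CHAD, the cartilage protein chondroadherin, had 12, 13 and 12 against 22, 46 and 25 (1.12, SE 0.38).

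Several of the low rises passed the threshold narrowly. RIPK4 (1.04 to 1.18 without each library in turn) kept its call in 0 of 6 such fits, the pseudogene in HCP5 (0.81 to 1.63) in 1, CHAD (0.60 to 1.36) and LDHAP2 (0.95 to 2.17) in 2 each, and MAPK15 (1.38 to 1.84) and the gene inside BAALC (2.19 to 4.49) in 4 each. By DESeq2, with all libraries, RIPK4 (adjusted p = 0.093), CHAD (0.15), LDHAP2 (0.12) and the pseudogene in HCP5 (0.12) were not called, and the same 4 were not called without the filter on low counts (adjusted p from 0.084 to 0.15). MAPK8IP1 lost it without control replicate 2 (1.25), and the gene inside MOV10 without control replicate 3 (0.85). The other 26 called rises lay between 0.25 and 1.09.

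Both members could be tested in 270 pairs, and their changes had the same sign in 166 (61.5%). Convergent pairs shared the sign in 176 of 321 (54.8%) and divergent pairs in 130 of 232 (56.0%). The Spearman correlation of the log2 fold changes over the 270 pairs was 0.35, a description over members that share libraries and scaling. In 60 pairs 1 member was called, and the other had the same sign in 47, against 34 of 53 convergent and 35 of 54 divergent pairs. In 8 pairs both were called, each time with the same sign, as in 4 of 5 convergent and 6 of 6 divergent pairs. They include the pairs of MUC5B, THBS1, DDIT4, CD44, CALR, FAT2 and RIPK4.

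**Figure D2:**
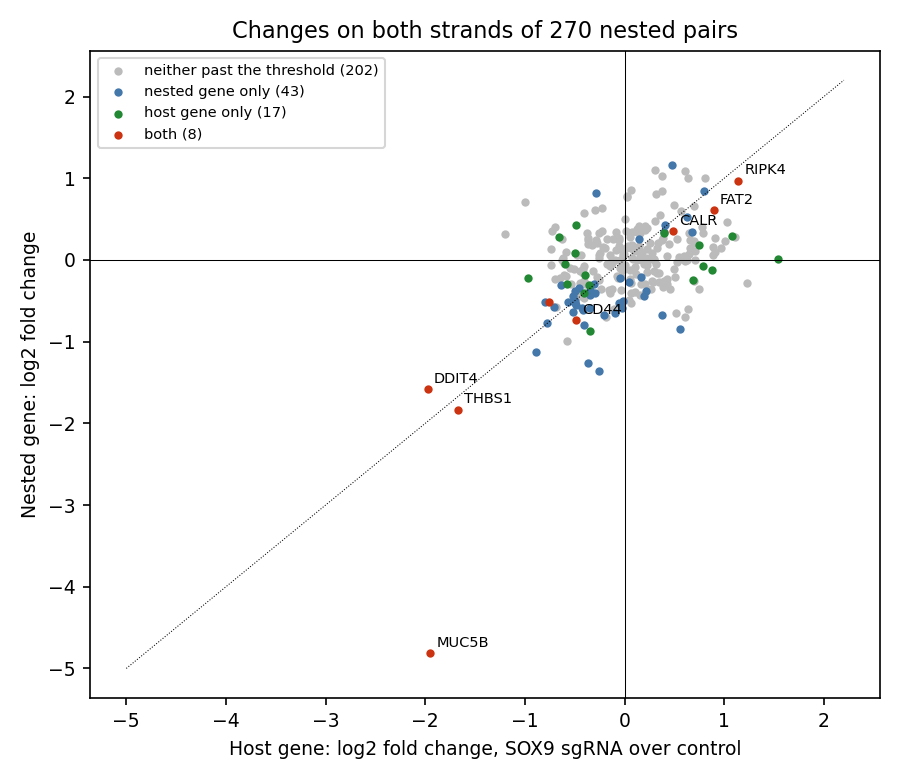
Log2 fold change, SOX9 sgRNA over control, of the host (x) and the nested gene (y) for the 270 pairs with both members tested, coloured by which member passed an adjusted p of 0.05, with the dotted line of equal change. The 8 pairs with both called lie where both changes are negative or both positive, and MUC5B lies well under the line, at -1.95 for the host and -4.82 for the nested gene.

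CD44, CALR, FAT2 and the nested gene of RIPK4 are named here because both strands of their pairs were called, a choice made after their values were seen. CD44, the receptor for hyaluronan, had 195, 209 and 218 counts in control and 169, 144 and 210 in SOX9 sgRNA libraries (-0.49, SE 0.13, adjusted p = 0.0069), and CD44-AS1 had 943, 1046 and 864 against 628, 550 and 849 (-0.74, SE 0.08, adjusted p = 2.96e-11). Scaled to TMM library sizes neither overlapped between groups, at 280 ± 29.3 against 198 ± 9.73 CPM for CD44 and 1276 ± 45.6 against 766 ± 56.4 for CD44-AS1 (SD, n = 3). By library totals CD44 was at -0.31 (adjusted p = 0.12), and without control replicate 3 at -0.41 (adjusted p = 0.072).

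CALR, the endoplasmic reticulum chaperone calreticulin, had 216, 222 and 175 counts in control and 280, 310 and 419 in SOX9 sgRNA libraries (0.48, SE 0.12), and the gene inside it 739, 761 and 719 against 1095, 1001 and 1228 (0.35, SE 0.08). FAT2, an atypical cadherin of squamous epithelia, had 45, 60 and 59 against 132, 89 and 139 (0.89, SE 0.20), and its nested gene 137, 159 and 145 against 249, 252 and 288 (0.61, SE 0.13). RIPK4, a kinase needed for the differentiation of keratinocytes, had 13, 14 and 10 against 32, 28 and 36 (1.14, SE 0.36, adjusted p = 0.033, and 0.093 by DESeq2). Its nested gene ENSG00000236883 had 98, 120 and 117 against 241, 250 and 278 (0.97, SE 0.14, adjusted p = 1.59e-07). In all 3 pairs every SOX9 sgRNA library was above every control library on both strands.

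**Figure D3:**
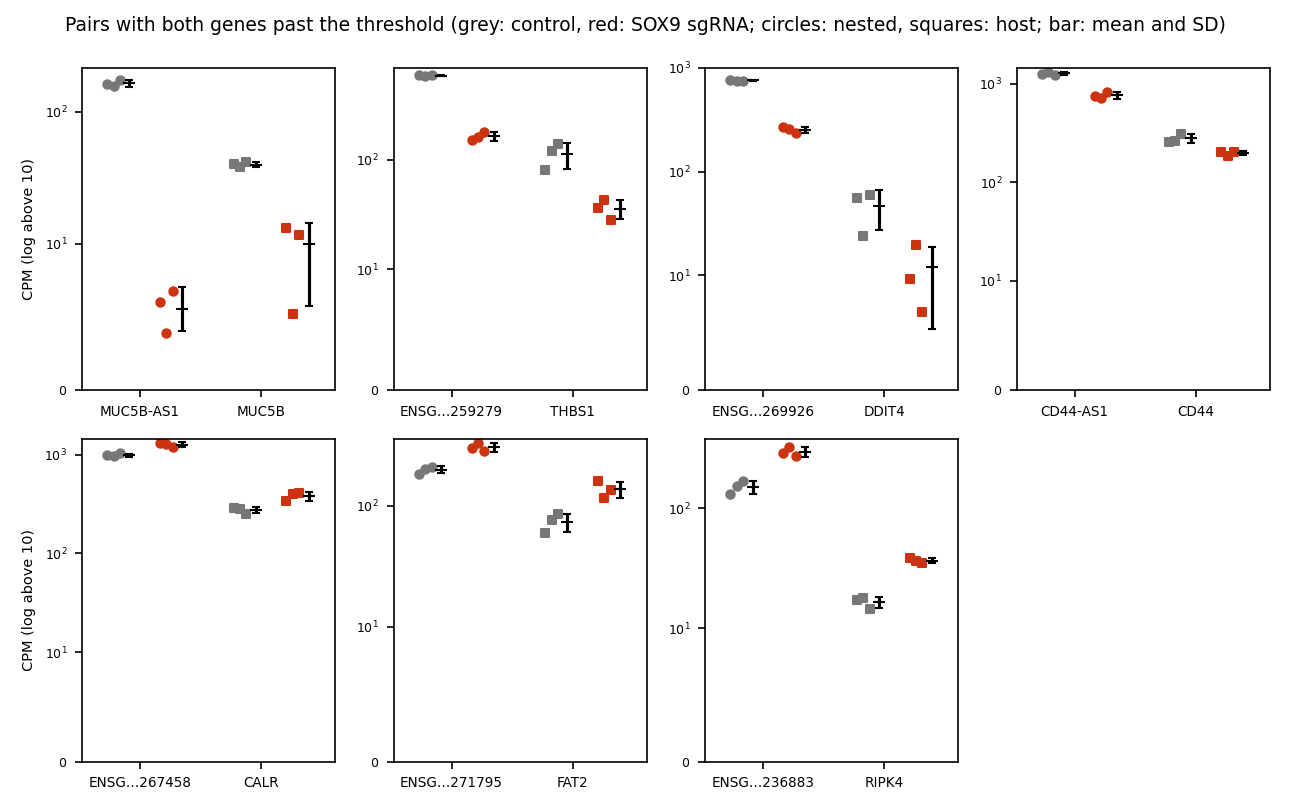
CPM by library (log scale above 10, linear to 0) for 7 of the 8 pairs with both members called, grey for control and red for SOX9 sgRNA libraries, circles for the nested and squares for the host gene, with the mean and SD of 3 libraries beside them. In each panel the red points of a gene lie all above or all below its grey points, and the nested gene lies above its host except in the SOX9 sgRNA libraries of MUC5B.

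Among the 10 largest pairs, the high strand fell in 9. All genes tested at an average log2 CPM of 8 and over had 37.7% called and a median log2 fold change of -0.15, and the smallest of these falls lie near that median. The log2 fold change was -0.21 for the gene inside UBB, -0.37 for that inside TUBB, -0.59 inside GAPDH, -0.59 inside BIRC5, -0.53 inside ARHGDIA, -0.30 inside P4HB, -0.50 for TUBA1B-AS1, -0.27 for RPL32 and -0.36 for MXD3. Their adjusted p-values ran from 7.79e-16 for the gene inside GAPDH to 0.0032 for RPL32. The gene inside NUCKS1 was at -0.04 (adjusted p = 0.77). None of the 10 low-strand partners was called, with log2 fold changes from -0.43 for BIRC5 to 0.20 for NUCKS1. By library totals 4 of the 9 were no longer called, namely the genes inside UBB (-0.03) and P4HB (-0.12), RPL32 (-0.09) and MXD3 (-0.18), and RPL32 was also lost without control replicate 3 (-0.21).

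The sum of both genes was tested as well. Within the shared exon this sum does not depend on which strand a fragment was given to. For exon outside the shared part it still does. Of 733 nested pairs tested by their sum, 39 rose and 72 fell (15.1%). Over all 7251 genes and pairs in that fit 9.63% were called, 3.48% higher and 6.15% lower. Convergent pairs had 38 higher and 58 lower of 644, and divergent pairs 16 higher and 64 lower of 605. With library totals for scaling, 96 nested pairs were higher and 41 lower. MUC5B's pair fell by 3.67 (SE 0.24), that of THBS1 by 1.80 (SE 0.11) and that of DDIT4 by 1.59 (SE 0.10), and RIPK4's pair rose by 0.99 (SE 0.13).

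The split of counts between the strands was tested directly, as the change in the ratio of host to nested counts between the groups. It was called in 3 of 739 nested pairs, against 0.349% of all 2004 pairs, 0.15% with a higher and 0.2% with a lower ratio. At an unadjusted p under 0.05 there were 49, against 59 of 649 convergent and 38 of 616 divergent pairs. Of the other arrangements, 1 convergent and 3 divergent pairs were called. Over the 739 pairs the host share of a pair in SOX9 sgRNA libraries minus that in control libraries had a median of 0.01 percentage points, 509 pairs stayed within 5 points, and the Spearman correlation of the shares between groups was 0.95, again a description. In simulated data this fit found 14% of 2-fold and 66% of 4-fold changes in the ratio, and where both genes had at least 60 counts it found 30.2% and 93.9%. Shifts of 2-fold or less in the ratio were thus mostly not detectable at this depth.

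In the MUC5B pair the antisense gene fell more than its host. MUC5B held 19.5% ± 0.16 of the counts in control and 63.0% ± 5.80 in SOX9 sgRNA libraries (SD, n = 3), and the log2 ratio of host to nested counts rose by 2.86 (SE 0.66, adjusted p = 0.0097). In the SOX9 sgRNA libraries the shares rest on 7 to 19 counts each. The call was lost without SOX9 sgRNA replicate 1 (2.69, adjusted p = 0.19) or replicate 3 (2.90, adjusted p = 0.12).

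MED8-AS1 lies inside MED8, a subunit of the Mediator complex of transcription. MED8 had 0, 0 and 6 counts in control and 17, 5 and 29 in SOX9 sgRNA libraries, and MED8-AS1 had 215, 196 and 197 against 206, 149 and 297. The host share was 0.98% ± 1.71 and 6.59% ± 2.96, and the log2 ratio rose by 2.85 (SE 0.63, adjusted p = 0.0062). The counts of MED8 overlapped between groups, and the value rested on single libraries. It was 6.96 without control replicate 3, and the call was lost without control replicate 1 (2.25), control replicate 2 (2.32), SOX9 sgRNA replicate 1 (2.77) or SOX9 sgRNA replicate 3 (2.54).

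JMJD4, which encodes a hydroxylase, lies inside SNAP47, a SNARE protein of membrane fusion, and here the host fell. SNAP47 had 672, 612 and 525 counts in control and 437, 444 and 458 in SOX9 sgRNA libraries (-0.65, SE 0.09, adjusted p = 2.1e-07), and JMJD4 had 184, 178 and 129 against 219, 228 and 248 (0.28, SE 0.13, adjusted p = 0.21). The host share was 78.7% ± 1.42 and 65.9% ± 0.89, without overlap, and the log2 ratio changed by -0.94 (SE 0.24, adjusted p = 0.037). This call was lost without each library in turn (-1.0 to -0.88) and with the replicate number as a block (-0.94, adjusted p = 0.080).

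**Figure D4:**
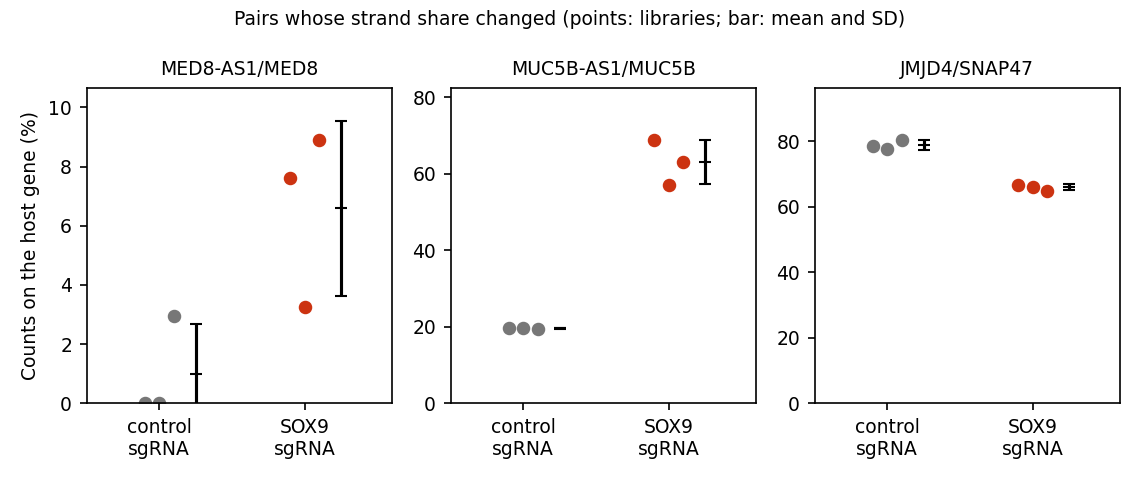
Share of a pair's counts on the host gene in each library (percent, separate scales) for the 3 pairs called by the share fit, with the mean and SD of 3 libraries beside the points (the bar of the MED8 control libraries ends at 0). Control libraries sit near 19.5% for MUC5B and 78.7% for SNAP47 with SOX9 sgRNA libraries well apart, while the MED8 values lie under 10% and spread widely among SOX9 sgRNA libraries.

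Summed over pairs, the host held 19.4% to 20.2% of the counts in every library, with no gap between the groups. Within the 582 pairs of a coding and a noncoding gene, the coding member held 8.15%, 8.0% and 8.10% in control and 9.08%, 9.04% and 9.74% in SOX9 sgRNA libraries, so the groups did not overlap. The 10 largest of these pairs had 1.5% to 1.68% and 1.81% to 2.28%, and the other 572 had 13.3% to 13.4% and 14.2% to 14.6%. In convergent pairs the ranges overlapped, 17.7% to 18.3% and 17.7% to 18.5%, and in divergent pairs too, 17.2% to 17.3% and 16.9% to 18.7%. These sums carry no test, since the members were chosen with results known. The number of genes detected was also higher in every SOX9 sgRNA library than in any control library, as given above, and its part in the shares was not tested.

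**Figure D5:**
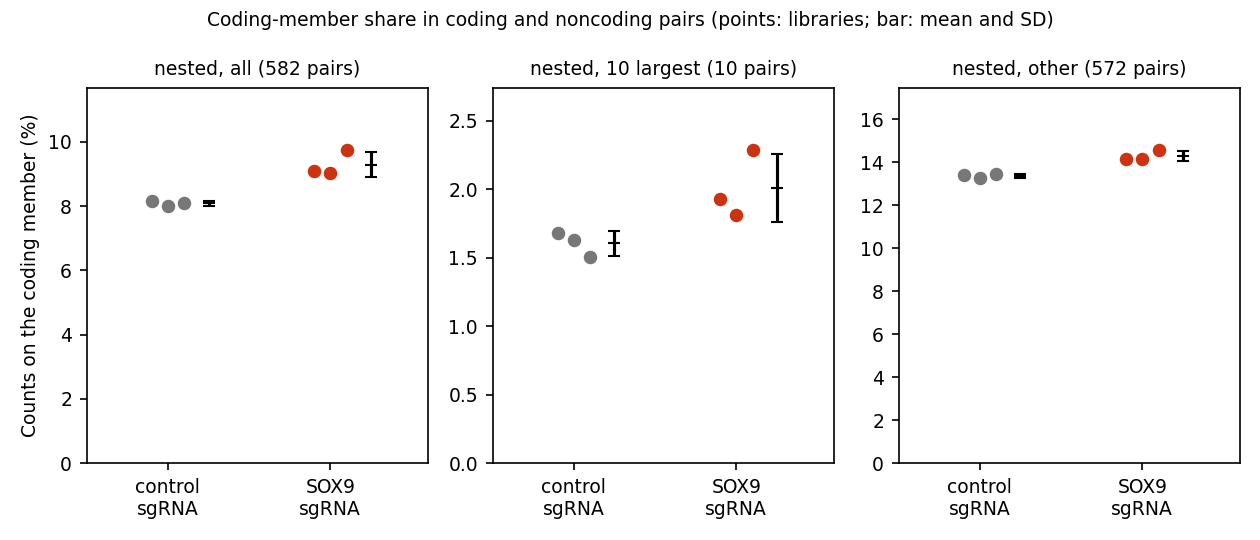
Share of the counts on the coding member (percent, axes from 0) in each library, for all 582 nested pairs of a coding and a noncoding gene, the 10 with the most counts and the other 572, with the mean and SD of 3 libraries beside the points. SOX9 sgRNA libraries lie above control libraries in each panel, by about 1 percentage point over all pairs.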

How the data were processed

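Total RNA of 6 libraries, 3 per group, was measured. The authors deposited raw counts per gene, whole numbers without normalization. Per the file headers, featureCounts 1.6.2 counted read pairs over exons by gene with strand setting 1 on Ensembl GRCh37 release 75 without ribosomal RNA and the mitochondrial chromosome, and a fragment counted for every gene it overlapped on its strand. Per the submitters' processing notes, STAR 2.7.10a aligned the reads to GRCh37 (hg19).

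Pairs were built from the exon coordinates of the tables. Biotypes came from GENCODE 29, for 51789 of 57209 genes, and symbols for 51452 from the reference tables by gene identifier. The fits used edgeR 4.0.16 (robust quasi-likelihood test, TMM factors, filterByExpr) in R 4.3.3: all genes, all genes with each one-to-one opposite-strand pair replaced by its sum, and the strand by group term within each pair with a term for every library. Adjusted p-values are Benjamini-Hochberg over 7959 genes, 7251 genes or sums, and 2004 pairs, with a threshold of 0.05. Log2 fold changes are SOX9 sgRNA over control, and SE is the absolute log2 fold change divided by the square root of F. CPM uses the tested total times the TMM factor, except for the cell markers, where it uses the library total. On simulated data the gene fit found 62% of 2-fold and 95% of 4-fold changes, with 5 false calls among 7778 unchanged genes. The changed genes were drawn from levels above the minimum set for named genes, so these shares do not cover the lowest of them. The simulations of the gene fit and the share fit gave every gene the same dispersion, which real genes need not have.

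Named genes are SOX9, the 10 largest pairs, the pairs of the 12 largest rises and falls (average log2 CPM 3 or more, CPM ranges of the groups apart), the pairs called in share, the 6 pairs of at least 600 counts nearest to an even split, and 3 pairs on each side of the minimum. The values of 1 pair called on both strands are not reported here. The members and lists were chosen with earlier results of these data known. Alternatives were DESeq2 1.42.0, limma 3.58.1 on log2 ratios with 0.5 counts added, library totals, other filters, a replicate block, leaving out each library, and stricter pair rules.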

Additional observations from a re-analysis of the deposited data

How the results depend on the processing

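No named and called gene or share that was followed through the alternatives changed sign, but the balance of rises and falls turned with the scaling. MIR3187 and SNAP47 were not followed as single genes. Of named genes that were not called, ARHGDIA (0.13) and ENSG00000268313 (0.14) changed sign by library totals. Without control replicate 2, TUBA1B (-0.09), CAND2 (-0.10) and ARHGDIA (0.10) did. CAND2 (-0.011) also did without SOX9 sgRNA replicate 1, and ENSG00000268313 (0.0046) with a stricter filter on low counts. Genes of nested pairs that rose numbered 38, and 25 by DESeq2 and 95 by library totals. Those that fell numbered 82, and 47 by library totals. Pairs that rose by their sum numbered 39, and 22 by DESeq2 and 96 by library totals, and pairs that fell 72, and 41 by library totals. Library totals move the median of all genes to 0.19. Pairs called in share numbered 3, and 1 by limma on the log2 ratio, none of the 3. Without each library in turn the counts ran from 28 to 33 for genes higher, 65 to 72 for genes lower, 26 to 33 for sums higher, 61 to 71 for sums lower and 0 to 2 for shares, with fewer libraries to test. The host share of all nested-pair counts was 19.88%, and 19.57% with at least 50 bp of shared exon, 19.49% at a summed count of at least 120 and 17.68% without same-strand overlap. Replicate numbers are shared between the groups, but deviations of same-numbered libraries were uncorrelated (r = -0.003, 0.019 and -0.011). With the replicate block, 29 genes were higher and 67 lower, 36 sums higher and 71 lower, and 2 shares called, and CHAD (adjusted p = 0.095) and the pseudogene in HCP5 (0.062) were no longer called. Depth limits the low strand most, since a member with few counts gives a ratio with a wide error.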
